A study of Saccharomyces cerevisiae with 24 samples.

Results

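GLC7 (YER133W) was 1 of 59 genes followed by single molecule intron tracking (SMIT) and 1 of 284 genes in the long-read table of a study of nascent RNA from budding yeast. It was chosen by measured values: the fraction of its RNA that had lost the intron differed widely between the 2 assays after 10 min of rapamycin. That difference is therefore described and not tested. GLC7 encodes the catalytic subunit of protein phosphatase 1, an essential serine and threonine phosphatase that works in glycogen metabolism, chromosome segregation and glucose repression through exchangeable partner proteins. Within the cleavage and polyadenylation factor it also takes part in 3′ end formation and transcription termination. Most yeast introns are removed while the polymerase is still on the gene, so the state of a nascent RNA depends on how far transcription has gone.

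Chromatin was isolated and RNA with poly(A) was depleted with oligo(dT) beads, per the labels' protocols. SMIT ligates an adapter to the 3′ end of this RNA, amplifies from a gene-specific primer upstream of the intron, and reads for each molecule both its 3′ end and whether the intron is gone. Long reads on a nanopore device came from RNA with the same ligated adapter but without gene-specific primers. Distances here are in nucleotides (nt) from the 3′ splice site to the RNA 3′ end.

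SMIT covered 14 libraries of untreated cells, 2 each of 6 KanMX deletion strains (npl3, gbp2, rtt103, tho2, pub1 and htz1) and of the wild type, all MATa his3Δ1 leu2Δ0 met15Δ0 ura3Δ0. A further 6 libraries, 1 per strain and time, came from Nab2-AA and Control-AA cells at 0, 10 and 30 min of rapamycin at 1 µg/ml. Nab2-AA was MATalpha and carried NAB2-FRB. Control-AA was MATa, and both carried tor1-1, a deleted FPR1 and RPL13A-2xFKBP12, which together let rapamycin tether an FRB-tagged protein to ribosomal protein that leaves the nucleus. Mating type and the tag therefore cannot be told apart between them. Long reads covered 2 libraries of each anchor-away strain at 10 min. The labels do not say whether replicates were separate cultures, so their spread may be technical. The SMIT files listed 699678 to 2839057 reads per library downstream of 3′ splice sites, and the long-read files 10096 to 32512 alignments per library. None of the 6 deleted genes, nor NAB2, had rows in the SMIT files (0 of 6), so the labels could not be checked there.

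GLC7 lies on the plus strand of chromosome V, with its coding span at 432495 to 433958 in sacCer3. A gap that 120 long reads shared placed its single intron of 525 nt at 432672 to 433196. The first coding exon is 177 nt and the second 762 nt, so the coding region ends 762 nt past the 3′ splice site.

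In SMIT, GLC7 RNA was almost completely spliced in every library. Between 5119 and 37195 reads per library ended downstream of the 3′ splice site, and 0% to 1.30% of them kept the intron. The mean fraction spliced over bins of 30 nt, each given equal weight, lay between 0.994 and 1. It ranked between 1st and 9th from the top among the genes measured in a library, against 50 to 59 genes ranked. Intervals below are exact 95% binomial intervals and cover counting error only, since reads copied by PCR are not independent molecules. Where a count was 0, the limit given is instead 3 counts of the total.

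The deletion libraries held fewer unspliced GLC7 reads than the wild type. In npl3, which lacks a nuclear shuttling protein that helps recruit splicing factors, 0.102% and 0.106% of reads were unspliced. In gbp2, which lacks a poly(A) RNA-binding protein of mRNA export, the shares were 0.00829% and 0.402%. In rtt103, which lacks a factor of transcription termination, they were 0% and 0.0437%. The 0 of 8148 reads in the first of these allows up to 0.0368% by that rule, and up to 0.0453% by the exact interval.

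In tho2, without a subunit of the THO complex that couples transcription to export, the shares were 0.0188% and 0.00698%. In pub1, without a poly(U)-binding protein, they were 0% and 0.117%, and 0 of 5185 reads allows up to 0.0579% (0.0711% by the exact interval). In htz1, without the histone variant H2A.Z, they were 0.0195% and 0.137%. The wild type had 1.30% (1.11% to 1.4997%) and 0.679% (0.503% to 0.897%). All 12 deletion libraries thus lay below both wild-type libraries, and the highest, gbp2 replicate 2 with an interval of 0.293% to 0.538%, was the only one whose interval reached that of a wild-type library.

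**Figure D1:**
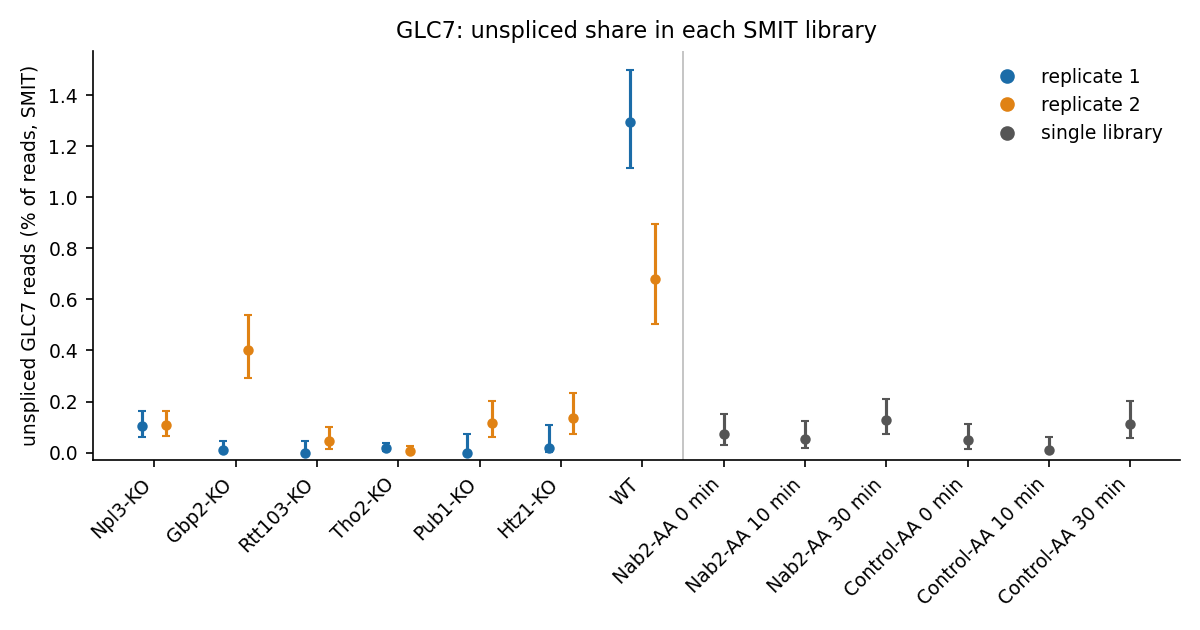
Unspliced GLC7 reads as a percentage of all GLC7 reads downstream of the 3′ splice site, for each SMIT library, with exact 95% binomial intervals. The 12 deletion libraries lie between 0% and 0.402%, the 2 wild-type libraries at 1.30% and 0.679%, and the 6 anchor-away libraries between 0.0111% and 0.128%.

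By the fraction spliced, 2 of 48 genes (4.17%) had all 12 deletion libraries above both wild-type libraries. These were GLC7 and PMI40, the mannose-6-phosphate isomerase of cell wall synthesis, the second named after its values were seen. Strain by strain, both libraries lay above both wild-type libraries in 12.5% of genes for npl3, 6.25% for gbp2, 10.4% for rtt103, 35.4% for tho2, 14.6% for pub1 and 10.4% for htz1, with GLC7 among them each time. All 6 comparisons share the same 2 wild-type libraries.

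No deletion strain passed the test for GLC7. The log2 odds ratio of spliced against unspliced reads, strain over wild type, was 6.20 ± 1.76 in tho2 (SE, edgeR quasi-likelihood test over 48 genes, adjusted p = 0.263) and 5.46 ± 1.82 in rtt103 (edgeR adjusted p = 0.652). It was 4.18 ± 1.75 in pub1 (edgeR adjusted p = 0.926) and 3.71 ± 1.71 in htz1 (edgeR adjusted p = 0.891). It was 3.22 ± 1.77 in gbp2 (edgeR adjusted p = 0.992) and 3.18 ± 1.60 in npl3 (edgeR adjusted p = 0.726). Single libraries moved these values by over 1.5 times in gbp2, to 1.24 without its replicate 1 and 6.70 without its replicate 2, in rtt103, to 9.90 without its replicate 2, and in pub1, to 9.68 without its replicate 2. The values of 9.90 and 9.68 rest on libraries with 0 unspliced reads and are no bound. The median of all 48 genes was 0.48 in tho2, the highest of the 6 strains, and -0.18 in npl3, the lowest. edgeR called 0 of 48 genes (0.0%) higher or lower in each strain, with 4 genes at an unadjusted p under 0.05 in tho2, 2 in npl3 and pub1, 1 in gbp2 and rtt103 and 0 in htz1. GLC7 had the smallest p of all 48 genes in rtt103, tho2 and htz1.

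The call depended on how the spread was modelled. With DESeq2, GLC7 passed in rtt103 (adjusted p = 0.0448) and tho2 (adjusted p = 0.00618). With only a strain's own and the wild-type libraries in the edgeR fit, it passed in tho2 (adjusted p = 0.000244) and pub1 (adjusted p = 0.0176).

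The library names in the labels begin with different prefixes, used here only to group libraries, since a prefix need not mark a sequencing run. Wild-type replicate 1 stood alone under its prefix, and replicate 2 of all 7 strains shared another. Replicate 1 of npl3, gbp2 and htz1 had a further prefix, and replicate 1 of rtt103, tho2 and pub1 yet another. No replicate 1 deletion library thus shared a prefix with a wild-type library. Within the shared prefix the unspliced shares of the 6 deletion libraries were 0.00698% in tho2 up to 0.402% in gbp2, against 0.679% in the wild type, again the highest. The median share of the deletion libraries was 0.0136% in replicate 1 and 0.112% in replicate 2, so the shares also differed by replicate number. With the prefix as a block, edgeR gave log2 odds ratios from 1.4965 in gbp2 to 4.97 in tho2. Wild-type replicate 1 is alone in its block, so wild-type replicate 2 is the only reference there. These values are therefore given as sizes only.

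Other features of the libraries varied as well. Reads ending at or before the 3′ splice site numbered 0.234 to 4.64 per 100 downstream reads in the deletion libraries, against 13.0 and 3.70 in the wild type, and all but 1 of them, in gbp2, were unspliced. These values did not separate the groups. Wild-type replicate 2 lay below replicate 2 of htz1, at 4.64, and of npl3, at 3.95. Unspliced reads were densest just past the splice site: within 30 nt, 0% to 2.92% of GLC7 reads kept the intron in the deletion libraries, against 7.16% and 3.85% in the wild type. Beyond 60 nt the shares were 0% to 0.251% in the deletion libraries and 0.667% and 0.494% in the wild type, so the groups did not overlap there either. How many other genes split this way by distance was not counted, so this is not particular to GLC7 by these values. The part of the upstream reads in the difference was not tested.

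The 3′ ends themselves lay early in the gene. The median GLC7 read end fell between 124 and 194 nt in the deletion libraries, against 123 and 116 nt in the wild type. In the deletion libraries it split by replicate number, with a median of 181.5 nt in replicate 1 and 133 nt in replicate 2. All replicate 1 values lay above all replicate 2 values, so the pooled range is not a difference between strains alone. How many other genes split this way was not counted. In the anchor-away libraries the median GLC7 read end fell between 77 and 101 nt. Between 74.1% and 94.1% of reads ended within 300 nt, and at most 0.932% past the coding region. SMIT thus sampled GLC7 RNA whose 3′ end was mostly in the first part of the second exon. Long reads of the anchor-away strains at 10 min had median ends from 736 to 885 nt.

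Between 1 and 15 unspliced GLC7 reads per anchor-away library set what SMIT could detect under rapamycin. In Nab2-AA, in which the nuclear poly(A)-binding protein Nab2 is withdrawn, 0.0724%, 0.0535% and 0.128% of reads were unspliced at 0, 10 and 30 min. In Control-AA the shares were 0.0486%, 0.0111% and 0.112%. The largest change from 0 min was an increase of 0.0633 percentage points in Control-AA at 30 min, with a Newcombe interval of -0.0185 to 0.156. All 4 such intervals included 0, as did the intervals of the difference between the strains at each time. With 1 library per time there was no test.

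On the fraction scale, at 10 min the median change of the fraction spliced over 57 genes was -0.0382 in Nab2-AA, where 45 genes lay below 0, and -0.00438 in Control-AA, where 41 did. GLC7 changed by 0.000234 in Nab2-AA and 0.000741 in Control-AA. Its fraction lay near 1 at every time, which leaves little room to rise, so these sizes were not ranked against other genes.

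The deposited files also give a corrected fraction. For GLC7 the correction divided the odds of spliced against unspliced reads by 1 number per library, between 2.54 in tho2 replicate 1 and 39.3 in Nab2-AA at 0 min. On the log2 scale this number was proportional to intron length across genes, at 0.255 to 1.00 per 100 nt depending on the library, with a spread within a library of at most 0.0132. How the authors set it is not given in the sources used here. It could not be computed for rtt103 replicate 1 and pub1 replicate 1, which had no unspliced GLC7 read. After correction the mean GLC7 fraction was 0.985 to 1 in the deletion libraries, against 0.967 and 0.970 in the wild type. The number was 13.3 and 18.4 in the wild type and at most 11.5 in the deletion libraries where it could be computed. Among these deletion libraries it was at most 3.91 in replicate 1 and at least 6.02 in replicate 2. A larger number lowers the fraction more, so the correction could not have closed the split seen before it. The corrected split is therefore no separate support. How many other genes split this way after correction was not counted. The correction moved many genes up: of 48 log2 odds ratios, 29 lay above 0 in npl3 and 43 in tho2. Uncorrected, these counts were 20 and 37.

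The authors' deposited table also scores each strain against the wild type. In the authors' deposited table GLC7 scored 0.447 for tho2, 0.656 for htz1 and -0.0903 for npl3 in replicate 1. For the same replicate the authors' deposited table gives 0.234 for gbp2, 0.372 for rtt103 and 0.323 for pub1. In the authors' deposited table for replicate 2 the scores were 0.151 for tho2, -0.250 for htz1 and -0.258 for npl3. For gbp2, rtt103 and pub1 the authors' deposited table gives 0.352, 0.129 and 0.0944 there. In the authors' deposited table of the rapamycin time course, GLC7 in Nab2-AA scored 0.356 at 10 min, above 52 of 57 genes, and 0.495 at 30 min, above 51 of 56 genes. In Control-AA the authors' deposited table gives 0.0105 at 10 min and -0.599 at 30 min, where 2 of 56 genes scored lower. These scores thus placed GLC7 near the high end in Nab2-AA and near the low end in Control-AA at 30 min, while the intervals of the change in unspliced share all included 0. The scale of these scores is not given in the sources used here, and that of htz1 differed in sign between replicates. The score of npl3 was below 0 in both replicates, while its log2 odds ratio above was 3.18.

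Long reads gave a different level for the same gene. In Nab2-AA 49 of 186 reads (26.3%, 20.2% to 33.3%) and 22 of 72 reads (30.6%, 20.2% to 42.5%) were spliced. In Control-AA 18 of 54 reads (33.3%, 21.1% to 47.5%) and 31 of 71 reads (43.7%, 31.9% to 56.0%) were spliced. Both Nab2-AA libraries lay below both Control-AA libraries, but the intervals overlapped. How many other introns had this order was not counted, and only 56 of 208 introns had a log2 odds ratio above 0. A read counted as spliced if it had the intron as a gap within 10 nt at each end, and as unspliced if it covered at least 90% of the intron. A share cannot tell fewer spliced from more unspliced molecules.

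The difference between the strains did not pass. The mean share spliced was 28.4% ± 2.98 in Nab2-AA and 38.5% ± 7.30 in Control-AA (SD, n = 2 each), with an exact two-sided permutation p of 0.3333, the smallest that 2 against 2 libraries can give. The log2 odds ratio was -0.75 ± 0.38 (SE, edgeR adjusted p = 0.256, unadjusted p = 0.0455). edgeR called 16 of 208 introns lower (7.69%) and 0 higher (0.0%), and the median log2 odds ratio of all introns was -0.52. Without any 1 library the count was between 1 and 6 introns, and GLC7 passed in none of these fits.

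The authors' deposited table gives GLC7 fractions spliced of 27.0% and 34.2% in Nab2-AA and of 32.1% and 42.3% in Control-AA. Each lies within the interval of its library above.

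Set side by side at 10 min, SMIT gave GLC7 a fraction spliced of 0.9998 in Nab2-AA where long reads gave 0.284, a gap of 0.715. In Control-AA it gave 0.9999 where long reads gave 0.385, a gap of 0.615. Across genes with a single intron and at least 10 long reads in each library, the median gap was 0.354 over 39 genes in Nab2-AA and 0.267 over 34 genes in Control-AA. SMIT was above the long reads in 38 of 39 and in 33 of 34 genes, so the direction was shared and GLC7 stood near the top in size. With the corrected fractions the GLC7 gaps were 0.713 and 0.614, and the medians 0.289 and 0.185.

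Averaged over both strains, 3 genes had a larger gap than GLC7 at 0.665. They were YRA1, an mRNA export adaptor that controls its own splicing, at 0.859, RPS9A, a small ribosomal subunit protein, at 0.803, and RPS14B, another such protein, at 0.684. The nearest in size besides RPS14B were NOG2, a GTPase of ribosome assembly, at 0.586 and HNT1, a hydrolase of nucleoside conjugates, at 0.549. NOG2 had a SMIT fraction of 0.9998 and a long-read fraction of 0.414. ACT1, the actin gene, had 0.980 by SMIT and 0.850 by long reads, a gap of 0.130.

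**Figure D2:**
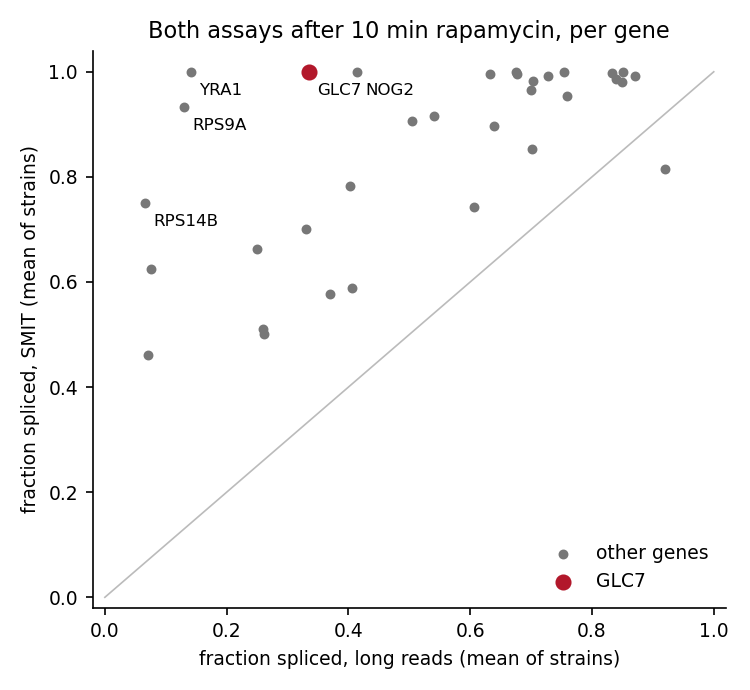
Fraction spliced by SMIT (vertical) against long reads (horizontal) after 10 min of rapamycin, each the mean of Nab2-AA and Control-AA, 1 point per gene, with the line of equal values. GLC7 sits at the top left with 0.335 by long reads, between YRA1 and NOG2 and far above the line.

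Genes with longer introns held most of the SMIT values near 1 on the raw fraction. Of the 17 genes with an intron of at least 300 nt, 11 had a SMIT fraction of at least 0.99, against 0 of 16 genes with a shorter one. The median long-read fraction was 0.699 and 0.404 in the same 2 classes. GLC7, with 525 nt, thus had a raw SMIT level common among long introns and a long-read level below their median. The deposited correction grows with intron length, and these classes were not counted on corrected fractions. Corrected, GLC7 stood at 0.997 in Nab2-AA and 0.999 in Control-AA. NOG2, with 532 nt, had 0.999 and 0.993, and RPS9A, with 501 nt, had 0.687 and 0.850.

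Across the 14 libraries of the deletion series, the genes nearest to GLC7 in SMIT fraction were DBP2, an RNA helicase that controls its own splicing, with a mean absolute difference of 0.00125, YRA1 with 0.00581 and EFB1, a translation elongation factor, with 0.00596. Their introns are 1002, 766 and 366 nt long.

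The assays also sampled different 3′ ends, so they were compared at matched distances. Among ends 1 to 300 nt past the 3′ splice site, 99.95% of Nab2-AA SMIT reads were spliced, against 0 of 23 long reads in Nab2-AA, which allows a share of up to 13.0% (14.8% by the exact interval). In Control-AA 99.99% of SMIT reads were spliced there and 1 of 12 long reads was. The gap at matched ends was 0.9995 in Nab2-AA, the largest of 17 genes with enough reads, and 0.917 in Control-AA, where 2 of 12 genes had a larger one. The medians were 0.630 and 0.576.

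In the window from 450 to 600 nt the long reads were 16.0% spliced in Nab2-AA (4 of 25 reads) and 15.8% in Control-AA (3 of 19 reads). SMIT had 222 of 222 and 59 of 59 reads spliced in that window. Beyond 600 nt SMIT had 13 Nab2-AA reads up to 750 nt and 2 farther out, and 3 Control-AA reads, so the assays could hardly be compared there.

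**Figure D3:**
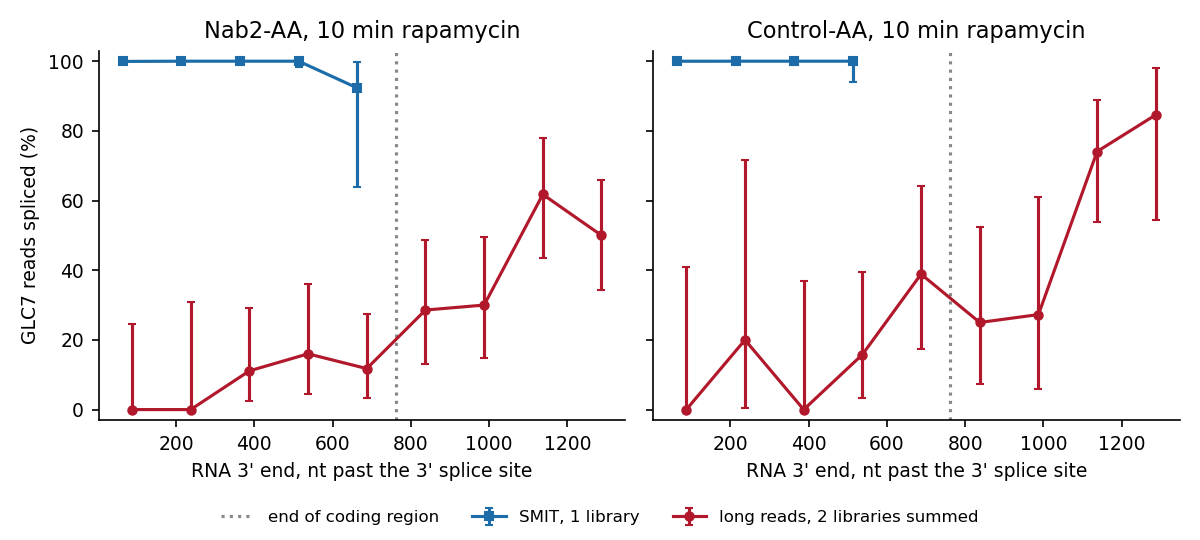
GLC7 reads spliced (%) in windows of 150 nt of the RNA 3′ end past the 3′ splice site, with exact 95% binomial intervals, for Nab2-AA (left) and Control-AA (right). SMIT windows with under 10 reads are not drawn. SMIT stays above 92% wherever it has reads, and the long reads stay under 40% in every window before 750 nt.

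Within the long reads, the share spliced differed with the position of the 3′ end. Over all 4 libraries, 383 reads were classed, 120 spliced and 263 unspliced. Of reads ending in the second coding exon 23 of 168 were spliced (13.7%, 8.88% to 19.8%), with 9.21% and 14.7% in the Nab2-AA libraries and 11.1% and 25.8% in the Control-AA libraries. Of reads ending between the coding end and 1181 nt, 44 of 120 were spliced (36.7%, 28.1% to 45.9%).

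The most frequent end lay 1202 nt past the 3′ splice site, at position 434398 of chromosome V and 440 nt past the coding end, with 21 reads at that base. Reads ending within 20 nt of it were mostly spliced, 44 of 49 (89.8%, 77.8% to 96.6%). The counts were 21 of 23 and 6 of 6 in the Nab2-AA libraries, and 8 of 9 and 9 of 11 in the Control-AA libraries. This cluster was chosen after the ends were seen. It is the 1 place where the long reads came near the SMIT level, and SMIT had no 10 min read that far out in either strain.

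Beyond the cluster the reads were again mostly unspliced, with 9 of 44 spliced (20.5%, 9.80% to 35.3%). Of these 44 reads, 40 came from Nab2-AA, 15.5% of its classed reads, and 7 of them were spliced. The other 4 came from Control-AA, 3.2% of its classed reads, with 2 of them spliced. These 4 are too few to give a share spliced for Control-AA.

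**Figure D4:**
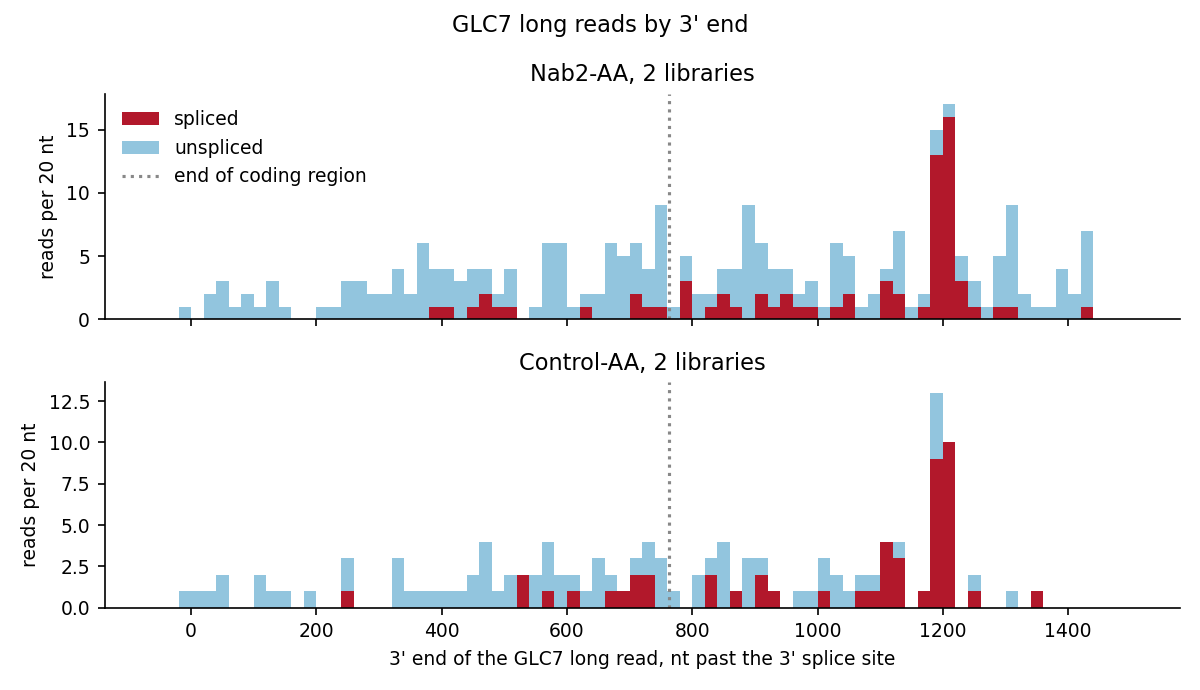
Number of GLC7 long reads per 20 nt of 3′ end position past the 3′ splice site, spliced (red) and unspliced (blue), 2 libraries summed per strain. A cluster of mostly spliced ends stands near 1202 nt in both strains, and mostly unspliced ends continue past it in Nab2-AA.

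Reads that ended more than 250 nt past the coding end did not separate the strains. In Nab2-AA 40.9% and 34.7% of reads ended beyond this limit, against 29.6% and 39.4% in Control-AA. The log2 odds ratio was 0.24 ± 0.30 (SE, edgeR adjusted p = 0.575), while 45 of 200 genes were called higher (22.5%) and the median of all genes was 1.45. The count was 0 without either Nab2-AA library. The GLC7 value was -0.0206 without Nab2-AA replicate 1 and -0.0182 without Control-AA replicate 1. This limit falls before the cluster of GLC7 ends at 420 to 460 nt past the coding end, so it counted those ends as beyond the gene.

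A limit of 500 nt was one of 2 listed alternatives, and its further tests were added after seeing the data. More than 500 nt past the coding end, 20 of 186 reads (10.8%) and 11 of 72 reads (15.3%) ended in Nab2-AA, against 0 of 54 reads, which allows up to 5.56% (6.60% by the exact interval), and 2 of 71 reads (2.82%) in Control-AA. The log2 odds ratio was 2.96 ± 0.83 (SE, edgeR adjusted p = 0.0371), and edgeR called 35 of 200 genes higher at this distance (17.5%) and 0 lower, with a median of 1.62 over all genes. The exact two-sided permutation p over the 4 libraries was 0.3333, the smallest they can give. At the other alternative, 100 nt, the log2 odds ratio was 0.41 (edgeR adjusted p = 0.502). The call at 500 nt was lost with DESeq2 (adjusted p = 0.0869). It was also lost without Nab2-AA replicate 2 (adjusted p = 0.0668), without Control-AA replicate 1 (adjusted p = 0.175) or without Control-AA replicate 2 (adjusted p = 0.138), by edgeR.

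No classed GLC7 read covered 50 nt or more of an upstream gene (0 of 383 reads), and the farthest ended 672 nt past the coding end. Nearly all started together: 98.96% of reads began within 50 nt of position 432437, which lies 58 nt before the coding start. Spliced reads had a median aligned length of 1370 nt and unspliced reads 1478 nt. The labels' protocols state that long-read products under 250 bp were removed. A spliced GLC7 molecule from the most frequent start to the first base past the 3′ splice site is 236 nt long before adapters. The part of this limit in the low share of spliced reads with early ends was not tested.

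Genes that work with GLC7 were looked up as well. None of 21 partner proteins of protein phosphatase 1 and none of 6 members of the APT part of the cleavage and polyadenylation factor had SMIT rows or an intron found in the long reads (0 in both lists). Of 14 other phosphatases, kinases and partners, 2 had an intron tested in long reads, and neither passed (0 called, where 7.69% of all introns were called lower). KIN28, the kinase of transcription factor TFIIH, had 0 of 11 and 0 of 2 reads spliced in Nab2-AA, against 2 of 4 and 1 of 7 in Control-AA. MOB2, a partner of the kinase Cbk1, had 11 of 106 and 2 of 31 reads spliced in Nab2-AA, against 2 of 10 and 4 of 18 in Control-AA. The edgeR adjusted p was 0.293 for KIN28 and 0.380 for MOB2.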

How the data were processed

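GLC7, the comparison genes and the gene lists were chosen with earlier results of these data known. The authors deposited SMIT counts of reads per 3′ end position with a raw and a corrected fraction spliced, a long-read table of fractions, alignments as coordinates, and scores per strain of unstated scale. Alignments are to sacCer3 per the labels. The submitters' processing notes name minimap2 2.17, HISAT2 2.1.0, bedtools 2.29.2, cutadapt 1.9.1 and SAMtools 1.9. The 3′ adapter has 5 random bases per the labels' protocols, and whether PCR copies were removed is not given in the sources used here. Spliced reads were the deposited count times the raw fraction, which lay within 0.001 of a whole number for all 632682 values. Gene spans came from the RefSeq table of assembly R64, and introns from gaps of 50 to 1200 nt in at least 3 long reads.

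Fractions were averaged over bins of 30 nt with at least 10 reads. Spliced and unspliced counts were tested with edgeR 4.0.16 (R 4.3.3) as an interaction of strain and splicing state with 1 term per library, Benjamini-Hochberg over all genes or introns, and adjusted p under 0.05 as the threshold. DESeq2 1.42.0 and limma 3.58.1, on log2(count + 0.5), were alternatives. Fits were tested on simulated data. Genes named were GLC7, ACT1, the 3 nearest in SMIT fraction, the 3 nearest in gap and those with a larger gap. Deviations of same-numbered libraries correlated at 0.129 to 0.216 between each deletion strain and the wild type, over 2 pairs, so the numbers were not taken as pairing.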

Additional observations from a re-analysis of the deposited data

How the results depend on the processing

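All 72 alternative GLC7 odds ratios for the deletion strains were above 0. They refit the same counts, in which every deletion library had a lower unspliced share than both wild-type libraries. Their shared sign is thus no separate support. Of the 72, 6 passed the threshold in edgeR or DESeq2. In tho2 these were 6.30 with DESeq2, 4.97 with the name prefix as a block and 6.20 with only tho2 and the wild type. The tho2 value below with a replicate block also passed. Outside tho2 they were 5.77 with DESeq2 in rtt103 and 4.08 with only pub1 and the wild type. With the prefix as a block the wild type rests on 1 library. Genes called numbered 0 in 63 of 72 alternatives. They were 1 with DESeq2 in rtt103 and in tho2. With the prefix as a block, where wild-type replicate 2 is the only reference, they were above 0 in gbp2, rtt103, tho2 and pub1. With only the strain and the wild type they were 1 in tho2 and 2 in pub1. With the replicate block, the GLC7 odds ratio in tho2 was 6.11 (edgeR adjusted p = 0.0321) and 3 genes were called there; it changed no other call. Leaving out 1 library, the GLC7 values ran from 2.71 to 3.65 in npl3, 1.24 to 6.70 in gbp2, 4.41 to 9.90 in rtt103, 5.64 to 6.98 in tho2, 3.01 to 9.68 in pub1 and 2.79 to 5.48 in htz1, with 0 genes called each time. The highest values in rtt103 and pub1 rest on a library with 0 unspliced reads, depend on the prior count and are no bound. The wild-type mean fraction was 0.989 with 10 nt bins, 0.987 with 60 nt bins, 0.987 with 5 reads per bin, 0.985 up to 200 nt, 0.9901 with pooled reads and 0.968 corrected; the anchor-away median was 0.993 corrected. Corrected changes under rapamycin were 0.00337 at 10 min and -0.00313 at 30 min for Nab2-AA, against 0.0119 at 10 min and 0.00218 at 30 min for Control-AA. The gap was 0.865 in Nab2-AA and 0.872 in Control-AA with long-read ends inside the SMIT window, and 0.821 and 0.781 with ends within 250 nt past the coding end. Without 1 long-read library it was 0.694 to 0.736 in Nab2-AA and 0.563 to 0.667 in Control-AA. Introns called in long reads numbered 2 with DESeq2, 0 with limma, where 29 had an unadjusted p under 0.05, 2 with reads within the gene and 1 to 6 without 1 library. The replicate numbers of the long reads deviated in opposite ways (correlation -0.15), and crossing them in the block, added after seeing the data, called 1 intron against 13 uncrossed. The GLC7 long-read odds ratio stayed below 0, from -1.03 to -0.40 without 1 library. For ends beyond 250 nt it was 2.96 at 500 nt, and -0.02 to 0.61 without 1 library, namely -0.0206 without Nab2-AA replicate 1 and -0.0182 without Control-AA replicate 1; genes called higher numbered 26 with DESeq2, 25 at 100 nt and 0 to 40 without 1 library. At 500 nt, in settings added after seeing the data, GLC7 had 3.20 with DESeq2 and 2.18 to 6.70 without 1 library, and 21 genes were called with DESeq2 26 with the replicate block and 0 to 32 without 1 library, 0 of them without either Control-AA library. The causes of these changes were not tested. Depth was 54 to 186 GLC7 long reads per library, and in SMIT 0 to 178 unspliced GLC7 reads per library.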
